A study of Arabidopsis thaliana with 18 samples.

Results

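Root hair cells with a gain of the trihelix factor DF1 were compared with root hair cells that had lost DF1 alone, so that GTL1, the related factor of the study, was intact on both sides. The comparison was chosen by genotype and set 6 of the 18 arrays against each other, 3 of DF1ox and 3 of df1. It covered all 22746 probe sets that are not Affymetrix controls, with the spread estimated from all 18 arrays. The wild type (WT) was set beside it, so that each change could be placed at the step from WT to DF1ox, at the step from df1 to WT or at both. RNA from sorted root hair cells of Arabidopsis thaliana seedlings was hybridised to Affymetrix ATH1 arrays, 3 for each of 6 genotypes (WT, GTL1ox, DF1ox, gtl1, df1 and gtl1df1). All seedlings were 5 days old and of the Columbia background, and no agent was applied. The labels name MS medium and the study's methods Johnson medium. In DF1ox, the promoter of EXPA7, an expansin gene of root hairs, drove DF1 fused to green fluorescent protein, on top of the resident DF1 and GTL1 genes, and the fusion itself was the signal by which cells were sorted. The line df1 carries a T-DNA insertion in DF1, and the study's methods do not name the sorting marker of df1 and gtl1. In WT and gtl1df1, cells were sorted by a nuclear green fluorescent protein under the same EXPA7 promoter. DF1ox is therefore a gain limited to the cells in which that promoter is active, while the loss in df1 holds in the whole plant. The arrays of a genotype are biological replicates by the study's methods. The p-values reflect the scatter within genotypes pooled over all 6, not that of the compared arrays alone.

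Trihelix factors are plant transcription factors that bind GT elements in promoters. GTL1 and DF1 are known as restraints on the growth of root hairs, the tube-like outgrowths of epidermal cells through which roots take up water and nutrients. A root hair grows at its tip, where wall-loosening expansins and xyloglucan endotransglucosylases, RALF peptides with their receptor kinases, and the actin and tubulin cytoskeleton act together.

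Values are gcRMA levels on the log2 scale, and 27.9% of them lay within 0.01 of the lowest value, 2.22. Where every array of the dimmer genotype lay within 1 log2 unit of that value, a change is given as at least its size. By the spiked-in bacterial transcripts the series fell into 2 hybridisation sets of 9 arrays, with DF1ox and WT in the one and df1, gtl1 and gtl1df1 in the other. BioB lay between 3.03 and 3.40 in DF1ox, between 2.73 and 2.91 in WT and between 8.42 and 8.65 in df1. In DF1ox against df1 and in df1 against WT, genotype cannot be told apart from hybridisation set, whereas DF1ox against WT stayed within a set. As a sign of RNA quality, probe sets at the 3' end of plant control transcripts exceeded those at the 5' end by 0.97 to 1.17 in df1, 0.64 to 0.84 in DF1ox and 0.55 to 0.84 in WT. In gtl1 and gtl1df1 they did so by 0.65 to 0.86 and 0.70 to 0.75. The part of this difference in the results was not tested. The arrays of DF1ox correlated with each other at 0.996 to 0.997 across probe sets and those of df1 did so as well, while those of WT correlated at 0.987 to 0.994. WT replicate 3, with an array median of 3.22, stood apart.

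DF1 itself followed the genotypes at every step. Its level was 14.30, 14.09 and 14.24 in DF1ox, 7.23, 7.26 and 7.57 in WT and 3.74, 3.30 and 3.30 in df1. The 3 genotypes did not overlap (over all probe sets, the arrays of DF1ox and df1 did not overlap in 27.5%), and DF1ox lay 10.76 ± 0.32 (SE) log2 units above df1 (limma, adjusted p = 2.74e-09). Where the insertion lies relative to the probe set is not given in the sources used here. GT2, the trihelix gene that lies next to DF1 in the reference order with 0 genes between them, went the other way. It was at 7.69, 7.42 and 7.10 in DF1ox, 8.88, 9.13 and 8.69 in WT and 9.37, 9.49 and 9.26 in df1. GT2 was 1.97 ± 0.20 lower in DF1ox than in df1 (adjusted p = 3.17e-05) and passed the test against WT too (adjusted p = 0.000657). GT-1, another trihelix factor, was at 6.50, 6.48 and 6.67 in DF1ox and 6.06, 6.47 and 6.45 in df1, a difference of 0.23 ± 0.13 (adjusted p = 0.315), and PTL stood at 2.22 in every array of both. EXPA7, the gene whose promoter drove the sorted signal in DF1ox and WT, was at 13.15, 13.31 and 13.19 in DF1ox and 13.18, 13.15 and 13.00 in df1. This difference of 0.11 ± 0.06 did not pass the test (adjusted p = 0.326). No probe set annotated with GTL1 or with RSL4, a promoter of hair growth, was analysed here.

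Over the whole array, 3734 of 22746 probe sets (16.4%) had an adjusted p under 0.05 in DF1ox against df1, 1916 higher in DF1ox (8.42%) and 1818 lower (7.99%). Large changes leaned downward, since 357 of the higher and 590 of the lower probe sets moved more than 2-fold. The median size of a called change was 0.667 log2 units, and 201 calls (5.38%) were smaller than 0.25. Fitted on the 6 compared arrays alone, the count was 2164. In a contrast in which an additive difference between the hybridisation sets cancels (DF1ox minus WT minus df1 plus gtl1), 933 probe sets (4.1%) were called. It also takes in the effect of losing GTL1, and its standard errors are larger, 0.46 against 0.32 for DF1. A lost call or changed sign there can come from any of these. That contrast called 664 of the 3734 in the same direction and gave 459 of them the opposite sign.

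Called probe sets were then placed beside WT. A probe set was put in the gain class when only DF1ox against WT passed the test in the same direction, in the loss class when only WT against df1 did, and in both steps when both did. The loss class held 1813 of the 3734 called probe sets (48.6%), the gain class 722 (19.3%) and both steps 181 (4.85%). In 97 a step was called against the overall direction, and in 921 (24.7%) neither step passed by itself. The background of these classes was 1828 of 22746 probe sets called in DF1ox against WT (8.04%) and 3995 in df1 against WT (17.6%). Fitted on the compared arrays alone, these counts were 78 and 333. The steps share the arrays of the comparison, so the classes are a description, and the step from df1 to WT crosses the hybridisation sets while that from WT to DF1ox does not. The set-cancelling contrast called 180 of the 1813 loss probe sets in the same direction (9.93%) and gave 284 the opposite sign (15.7%). It called 283 of the 722 gain probe sets in the same direction (39.2%) and 100 of the 181 in both steps (55.2%), and gave the opposite sign to 24 (3.32%) and 5 (2.76%). The set-cancelling contrast contains the step from WT to DF1ox, by which gain and both steps were chosen, but not the step from df1 to WT. Its shares therefore cannot rank the classes. Centring each array on its median turned the split of df1 against WT from 43.0% to 55.3% higher, and quantile normalization turned that of DF1ox against WT from 48.0% to 59.2% higher. Without df1 replicate 2, the loss class held 1165 probe sets and both steps 113, and 2636 were called in df1 against WT. Without WT replicate 3, the array that stood apart, the gain, loss and both-step classes held 604, 1686 and 97. When only the DF1ox, df1 and WT arrays were fitted, the gain, loss and both-step classes held 373, 955 and 60.

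**Figure D1:**
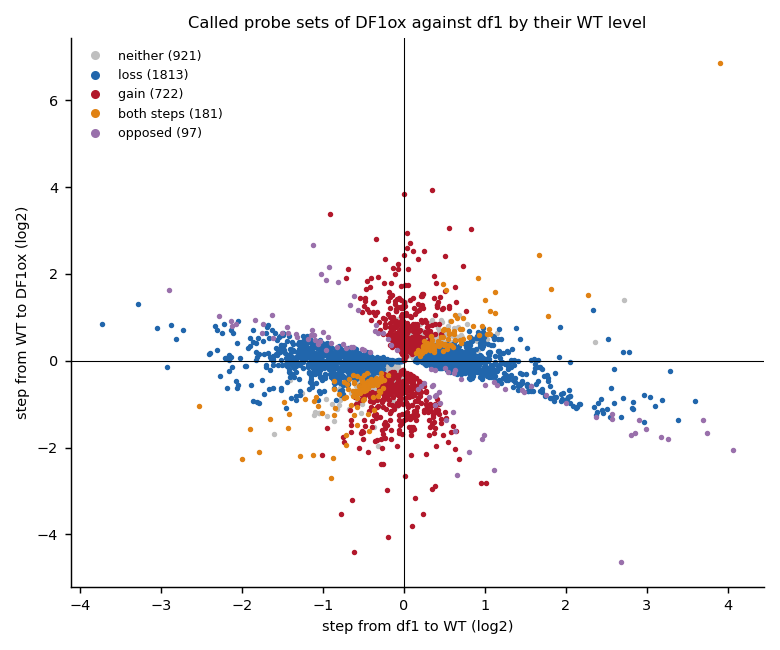
Each point is a called probe set of DF1ox against df1, with the step from df1 to WT on the x axis and the step from WT to DF1ox on the y axis, both in log2 units, coloured by class. The loss class (1813) spreads along the x axis and the gain class (722) along the y axis, and the point at the top right is DF1.

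The 2 largest falls among the named genes lay in the gain class. AT5G24570 was at 3.73, 4.03 and 3.51 in DF1ox, 8.87, 7.75 and 7.84 in WT and 8.50, 9.16 and 8.65 in df1. Its DF1ox arrays lay apart from those of WT and df1, and the mean was 5.01 ± 0.42 below df1 (adjusted p = 9.6e-06). AT3G11370 was at 2.59, 2.22 and 2.59 in DF1ox, 7.30, 6.09 and 6.20 in WT and 6.03, 6.99 and 7.14 in df1, a fall of at least 4.25 (adjusted p = 1.04e-05). AT3G11390, which is separated from AT3G11370 by 2 genes in the reference order and was called in both steps, was lower in DF1ox by at least 3.11 (adjusted p = 1.84e-06). AT5G55560 was at 5.09, 5.29 and 4.93 in DF1ox, 8.16, 7.56 and 7.55 in WT and 7.62, 7.63 and 7.97 in df1. It fell by 2.64 ± 0.16 (adjusted p = 7.54e-07). The reference names these genes by locus only, so no role is given for them.

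Among the genes of the gain class with a name, SWEET16, a sugar transporter of the vacuolar membrane, was at 8.35, 8.63 and 7.98 in DF1ox, 11.73, 10.82 and 11.09 in WT and 10.48, 10.88 and 11.12 in df1. It was 2.50 ± 0.27 lower in DF1ox than in df1 (adjusted p = 5.18e-05), whereas WT and df1 overlapped. The other 13 SWEET genes with a probe set of their own did not pass the test. HON4 was lower by 2.51 ± 0.26 (adjusted p = 3.71e-05) and SECE1, part of the protein translocation machinery of the chloroplast, by 2.09 ± 0.24 (adjusted p = 8.13e-05). SQN, a cyclophilin, was at 4.34, 4.19 and 4.60 in DF1ox and 6.57, 6.55 and 6.08 in df1, a fall of 2.02 ± 0.25 (adjusted p = 0.000153). RALFL27, a RALF-like signalling peptide, was at 8.26, 8.63 and 7.95 in DF1ox, 10.24, 9.85 and 9.84 in WT and 10.05, 10.11 and 10.54 in df1. Its fall was 1.95 ± 0.23 (adjusted p = 0.000115), and the WT and df1 arrays overlapped. NET4B, of the NETWORKED family of actin-binding proteins, was at 8.34, 8.25 and 8.63 in DF1ox, 10.11, 9.70 and 9.79 in WT and 9.94, 10.12 and 10.29 in df1, which was 1.71 ± 0.17 lower in DF1ox (adjusted p = 2.78e-05). The 8 largest rises and 8 largest falls among genes with a name were chosen after the values were seen.

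Rises of the gain class began in several cases from the bottom of the scale. AT1G24600 was at 5.19, 5.60 and 5.84 in DF1ox against 2.56, 2.68 and 2.55 in WT and 2.56, 2.56 and 2.55 in df1, a rise of at least 2.99 (adjusted p = 6.55e-08). AT5G59080 was at 6.16, 5.92 and 6.36 in DF1ox and between 2.26 and 2.28 in df1, at least 3.87 higher (adjusted p = 0.000205). One of its WT arrays was at 4.66 and the others were at 2.30 and 2.36. The serine carboxypeptidase-like gene scpl48 was at 8.02, 8.16 and 8.66 in DF1ox, 5.62, 6.06 and 6.62 in WT and 5.59, 5.21 and 5.28 in df1. It rose by 2.92 ± 0.31 (adjusted p = 4.92e-05). CLE27, a CLE peptide gene, rose by at least 2.12 (adjusted p = 3.47e-05) and NCRK, a receptor-like kinase, by at least 1.88 (adjusted p = 4.96e-05). GPDHC1, a cytosolic glycerol-3-phosphate dehydrogenase, was at 5.08, 4.58 and 5.50 in DF1ox and between 3.32 and 3.41 in df1, a rise of 1.70 ± 0.42 (adjusted p = 0.0147). Without DF1ox replicate 3 its adjusted p was 0.0652.

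**Figure D2:**
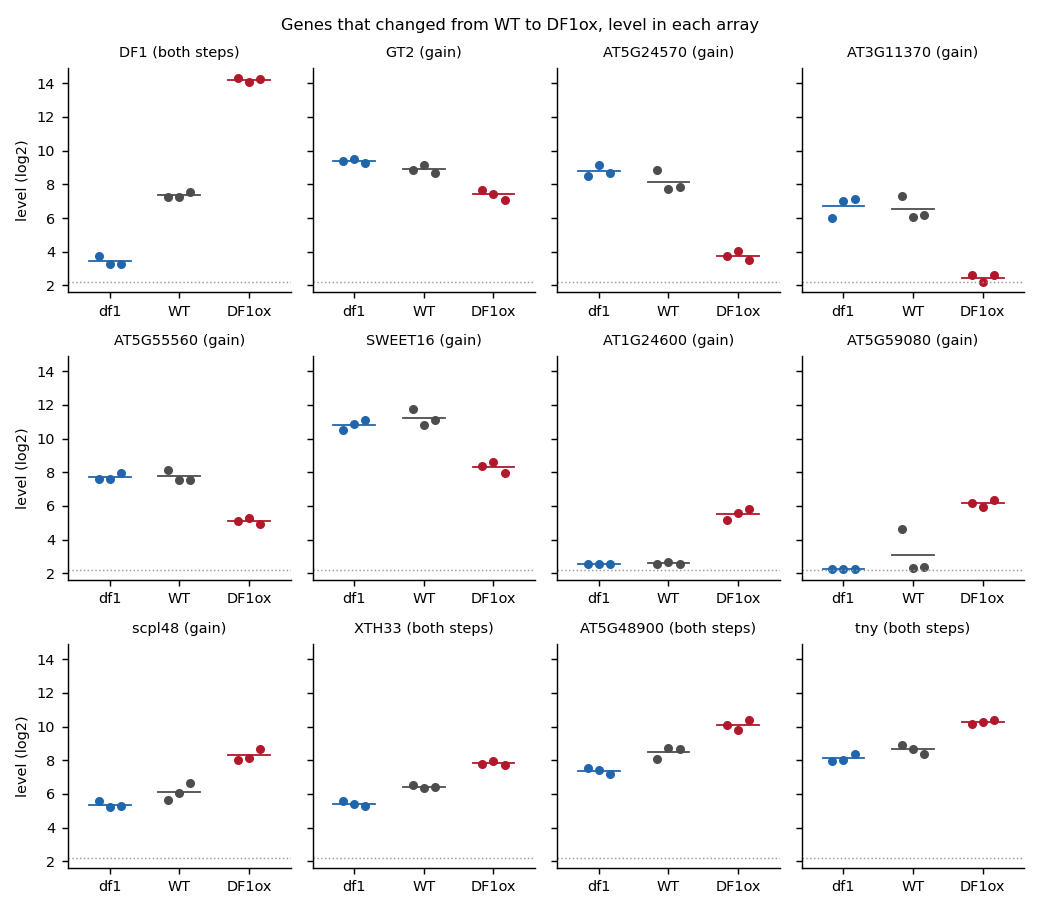
The log2 level of 12 genes in each array (points) and the mean of the 3 arrays (line) in df1, WT and DF1ox, with the lowest value of the table, 2.22, as a dotted line. The gain class asks only that df1 against WT did not pass the test. For AT1G24600, WT and df1 lie together at 2.55 to 2.68, near the lowest value. For GT2, WT (8.69 to 9.13) lies below df1 (9.26 to 9.49). For scpl48, WT (5.62 to 6.62) lies above df1 (5.21 to 5.59). The means of DF1, XTH33, AT5G48900 and tny step up from df1 to WT and again to DF1ox.

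The both-steps class, by its definition, holds only probe sets whose WT mean lay between those of the lines. XTH33, a xyloglucan endotransglucosylase, rose from 5.59, 5.39 and 5.28 in df1 to 6.52, 6.35 and 6.39 in WT and 7.79, 7.94 and 7.70 in DF1ox. The difference between the ends was 2.39 ± 0.25 (adjusted p = 3.89e-05), and no genotype overlapped another. AT5G48900 was at 7.56, 7.39 and 7.16 in df1, 8.08, 8.75 and 8.67 in WT and 10.08, 9.81 and 10.38 in DF1ox, a rise of 2.72 ± 0.20 (adjusted p = 3.75e-06). The AP2-type transcription factor tny was at 7.97, 8.01 and 8.38 in df1, 8.93, 8.65 and 8.35 in WT and 10.16, 10.29 and 10.36 in DF1ox. It was 2.15 ± 0.15 higher in DF1ox than in df1 (adjusted p = 1.62e-06), although the lowest WT array lay below the highest df1 array. HYH, a bZIP factor related to the light regulator HY5, rose by 1.65 ± 0.15 (adjusted p = 1.46e-05). In the other direction, AT5G42840 was at 9.07, 9.40 and 9.25 in df1, 8.83, 8.86 and 8.74 in WT and 7.43, 7.10 and 7.07 in DF1ox. This fall of 2.04 ± 0.10 (adjusted p = 2.54e-07) was mostly made between WT and DF1ox. AT1G65180 fell by 2.06 ± 0.14 (adjusted p = 1.79e-06) and AT4G02170, at 3.32 in all 3 DF1ox arrays, a repeated dim value, by 3.60 ± 0.29 (adjusted p = 7.07e-06). In gtl1, DF1 is intact and GTL1 is lost. There the levels of several of these genes lay at or beyond those of df1 rather than near WT. The means of gtl1, df1 and WT were 5.16, 5.42 and 6.42 for XTH33, 7.19, 8.12 and 8.64 for tny and 7.61, 7.73 and 8.59 for HYH. For the falling genes they were 9.39, 9.24 and 8.81 for AT5G42840 and 9.63, 9.56 and 8.98 for AT1G65180. Loss of DF1 and the hybridisation set of the mutants cannot be told apart in the step from df1 to WT. Nor can loss of GTL1 and that set be told apart in gtl1 against WT. For AT5G48900 the mean of gtl1, 8.07, lay between 7.37 in df1 and 8.50 in WT.

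In the loss class, df1 passed the test against WT and DF1ox did not, which does not show that DF1ox was at the WT level. AT2G01900 was at 2.57, 2.51 and 2.22 in DF1ox, 2.54, 2.68 and 2.53 in WT and 5.56, 5.52 and 5.46 in df1. It was at least 3.08 higher in df1 than in DF1ox (adjusted p = 2.96e-07). The mutants of the same hybridisation set did not share this level, with a mean of 2.44 in gtl1 and 2.37 in gtl1df1. AT5G27750, called in both steps, was also highest in df1, at 6.25, 6.48 and 5.90 in df1, 3.45, 3.90 and 3.69 in WT and 2.74, 2.47 and 2.70 in DF1ox, with means of 3.33 in gtl1 and 2.75 in gtl1df1. The difference between DF1ox and df1 was at least 3.57 (adjusted p = 7.54e-07). AT1G15010 was at 9.67, 9.50 and 9.30 in df1, 8.16, 7.35 and 7.54 in WT and 7.11, 6.71 and 6.35 in DF1ox, 2.77 ± 0.28 lower in DF1ox (adjusted p = 3.2e-05), and its DF1ox arrays lay below those of WT as well (adjusted p = 0.054). Its means of 8.40 in gtl1 and 8.38 in gtl1df1 lay between those of WT and df1.

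Genes of the loss class that were lower in df1 included AT2G24970, which was at 3.92, 3.92 and 3.84 in df1, 6.22, 5.66 and 5.58 in WT and 6.72, 6.79 and 6.32 in DF1ox. It was 2.72 ± 0.23 higher in DF1ox than in df1 (adjusted p = 9.76e-06), and gtl1 and gtl1df1 both had a mean of 4.49, below WT. Its DF1ox arrays lay above those of WT (adjusted p = 0.0547). AT1G11920 was at 3.45, 4.12 and 3.74 in df1 and 7.34, 7.08 and 7.39 in DF1ox, a difference of 3.50 ± 0.37 (adjusted p = 4.27e-05), with 6.71, 5.81 and 5.81 in WT, below all DF1ox arrays (adjusted p = 0.0741). The neighbouring genes AT1G52060 and AT1G52070, with 0 genes between them, were higher in DF1ox by 2.98 ± 0.81 (adjusted p = 0.0232) and 2.90 ± 0.77 (adjusted p = 0.0197). AT1G52060 was at 8.05, 8.27 and 8.88 in DF1ox, 5.12, 5.87 and 5.27 in df1 and 6.11, 8.79 and 9.72 in WT, where the arrays spread over more than the difference itself. Its adjusted p was 0.0549 without DF1ox replicate 2, 0.0826 without DF1ox replicate 3, 0.0675 without df1 replicate 1 and 0.0669 without df1 replicate 3. AT1G52070 had an adjusted p of 0.0552, 0.0709 and 0.0760 without DF1ox replicate 2, DF1ox replicate 3 and df1 replicate 3.

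**Figure D3:**
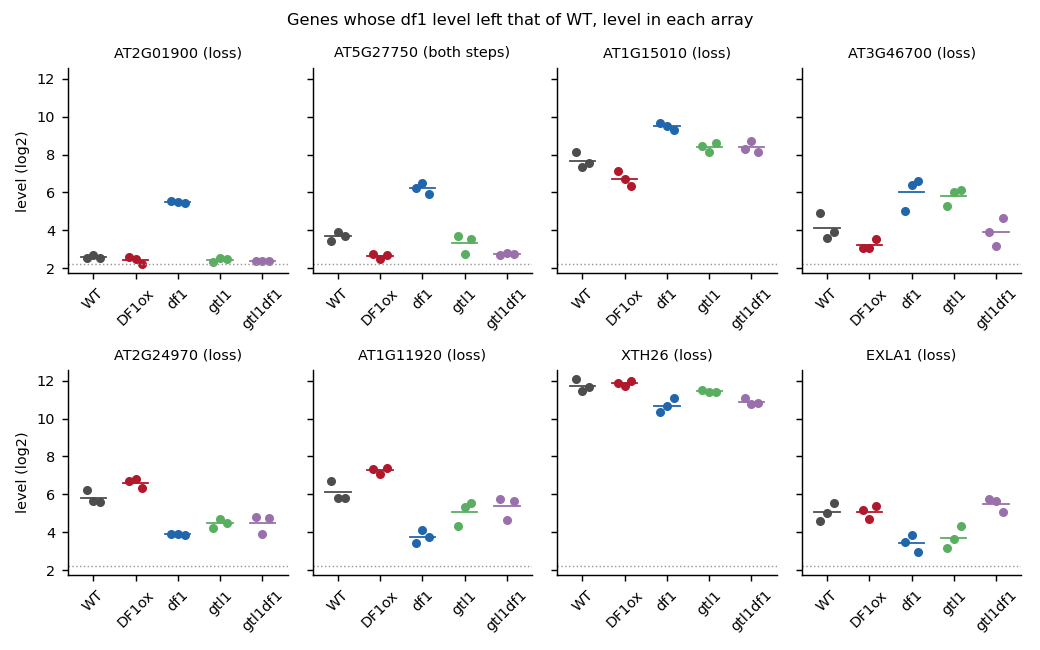
The log2 level of 8 genes in each array (points) and the mean of the 3 arrays (line) in WT, DF1ox, df1, gtl1 and gtl1df1, with the lowest value of the table, 2.22, as a dotted line. AT2G01900 stands at 5.46 to 5.56 in df1 and near the bottom of the scale in the other genotypes shown, whereas the levels of AT2G24970 in gtl1 and gtl1df1 also lie below WT.

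A second comparison of DF1 present against DF1 absent, gtl1 against gtl1df1, lay within a hybridisation set. Its means came from no array of DF1ox, df1 or WT, but its spread was estimated from all 18 arrays. Its calls are therefore not independent of those of DF1ox against df1. It called 1071 of 22746 probe sets (4.71%), 556 higher in gtl1 (2.44%) and 515 lower (2.26%). Of the 1916 probe sets higher in DF1ox than in df1, 119 were also higher in gtl1 (6.21% of the first list and 21.4% of the second) and 116 were lower in gtl1 (6.05% and 22.5%). Of the 1818 lower ones, 46 were called the same way (2.53% and 8.93%) and 115 the opposite way (6.33% and 20.7%). By class, of the 398 gain probe sets that were higher in DF1ox, 37 were called the same way (9.30%) and 11 the opposite way (2.76%), and of the 87 higher ones in both steps, 17 (19.5%) and 7 (8.05%). Of the 932 higher probe sets in the loss class, 37 (3.97%) went the same way and 83 (8.91%) the opposite way. The gain probe sets that were lower had 17 (5.25%) and 19 (5.86%) of 324. Of the 94 lower ones in both steps, 6 (6.38%) went the same way and 10 (10.6%) the opposite way. Of the 881 lower ones in the loss class, 9 (1.02%) went the same way and 46 (5.22%) the opposite way. These shares were not tested against each other. The count for gtl1 against gtl1df1 was 613 without gtl1 replicate 1, 573 without gtl1 replicate 2, 609 without gtl1df1 replicate 1 and 596 without gtl1df1 replicate 2.

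**Figure D4:**
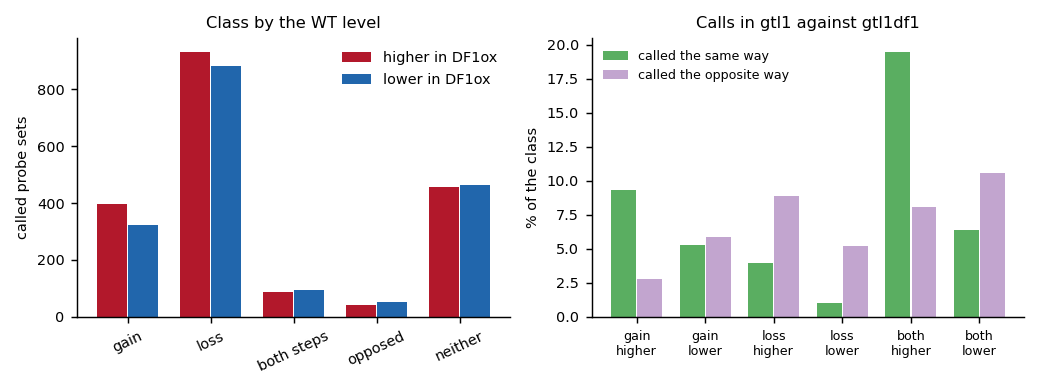
Left, the number of called probe sets of DF1ox against df1 in each class, higher or lower in DF1ox. Right, the percentage of the gain, loss and both-steps (both) classes that gtl1 against gtl1df1 called in the same or the opposite direction, from 19.5% the same way for both steps, higher, to 1.02% for loss, lower.

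DF1 was among the genes called the same way in both, with a mean of 8.57 in gtl1 and 4.15 in gtl1df1 (4.42 log2 units, adjusted p = 7.87e-06). AT1G20030, a both-steps gene, was at 9.23, 9.08 and 8.86 in DF1ox, 7.39, 7.35 and 7.10 in WT and 6.81, 6.90 and 6.67 in df1. It was 2.26 ± 0.12 higher in DF1ox than in df1 (adjusted p = 2.67e-07) and 0.95 higher in gtl1 than in gtl1df1 (adjusted p = 0.000654). Its mean of 6.01 in gtl1 was nevertheless below that of df1, at 6.79 (adjusted p = 0.00196), and that of WT, at 7.28. HYH was 0.76 higher in gtl1 than in gtl1df1 (adjusted p = 0.0114). SQN was called the same way as well, 1.21 lower in gtl1 than in gtl1df1 (adjusted p = 0.0166). Its mean in gtl1, 6.40, was nevertheless the same as in df1, at 6.40, with 7.61 in gtl1df1. SQN has 2 probe sets, and the brighter is given. The expansin-like gene EXLA1 went the opposite way. It was at 5.19, 4.70 and 5.36 in DF1ox, 4.58, 5.04 and 5.54 in WT and 3.49, 3.88 and 2.97 in df1, 1.64 ± 0.45 higher in DF1ox (adjusted p = 0.0234), and 1.77 lower in gtl1 than in gtl1df1 (adjusted p = 0.0412). The effect of losing DF1 on EXLA1 differed between the GTL1-intact and the gtl1 background (adjusted p = 0.0032, across hybridisation sets), and over all probe sets 15.6% passed the test of that difference. The adjusted p of EXLA1 in DF1ox against df1 was between 0.0524 and 0.0934 without DF1ox replicate 1, DF1ox replicate 3, df1 replicate 1 or df1 replicate 3.

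Gene lists of the root hair and its hormones were covered only in part, because 34 of the 279 names found in the reference had a probe set annotated with that gene alone. Of 5 measured genes for root hair walls and growth, 2 rose in DF1ox and 0 fell, with a median of 0.11 beside a median of 0.00 over all probe sets. Over all probe sets 8.42% were higher and 7.99% lower, which is the background for the list counts below as well. XTH26, a xyloglucan endotransglucosylase, was at 11.87, 11.74 and 11.98 in DF1ox, 12.07, 11.43 and 11.68 in WT and 10.33, 10.64 and 11.07 in df1. It was 1.19 ± 0.19 higher in DF1ox (adjusted p = 0.000756), as a loss gene. SCN1, a RhoGDI that confines hair initiation to a single site, was 0.41 ± 0.07 higher in DF1ox (adjusted p = 0.00159). FER, the receptor kinase for RALF peptides, was at 12.64, 12.58 and 12.60 in DF1ox and 12.66, 12.72 and 12.83 in df1 (adjusted p = 0.153). Of 9 genes of the XTH family, 2 rose (XTH26 and XTH33) and 0 fell. Of 14 expansins, 0 rose and 1 fell, EXPA8, by 0.94 ± 0.21 (adjusted p = 0.00735).

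Of 8 auxin response genes 1 rose, and the others did not pass the test. GH3.1, an auxin-conjugating enzyme gene, was at 5.67, 4.84 and 5.08 in DF1ox, 3.10, 3.03 and 3.0 in WT and 4.63, 3.53 and 3.75 in df1. Both lines lay above WT, and DF1ox lay 1.23 ± 0.29 above df1 (adjusted p = 0.0102, and 0.0519 without df1 replicate 2). GH3.3 lay above WT in both lines as well, with means of 8.50 in DF1ox, 6.96 in WT and 9.03 in df1, and the lines differed by 0.53 (adjusted p = 0.258). LEA4-5, a late embryogenesis abundant protein gene of the dehydration list, was at 10.18, 10.17 and 10.64 in DF1ox, 9.35, 9.74 and 9.22 in df1 and 7.71, 7.24 and 6.99 in WT. Both lines passed the test against WT, and the difference between them of 0.90 ± 0.34 did not (adjusted p = 0.105). RR16, a response regulator of the cytokinin list, was low in both lines, at 3.96, 4.69 and 3.88 in DF1ox and 4.55, 5.47 and 5.73 in df1 against 7.88, 6.61 and 7.03 in WT. BHLH101, an iron uptake factor, was likewise at 3.12, 3.10 and 3.19 in DF1ox and 3.01, 3.10 and 3.03 in df1 against 5.29, 4.29 and 4.40 in WT. Its means of 3.43 in gtl1, 3.02 in gtl1df1 and 3.05 in GTL1ox were also below WT, so that the mean of WT was above those of all 5 other genotypes. Of the housekeeping list, PEX4, a peroxisome biogenesis gene, was 0.47 ± 0.07 higher in DF1ox than in df1 (adjusted p = 0.000675). The ground tissue marker JKD was between 2.22 and 2.24 in DF1ox and between 2.22 and 2.31 in df1, and the photosynthesis gene RCA was between 2.30 and 2.65 in both. The lists for root hair bHLH factors, phosphate starvation, non-hair epidermis, stele and root cap had 0 members measured.

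Families defined by gene symbol are given as counts beside the background of 8.42% higher and 7.99% lower, and those of the next 4 kinds, like the organelle groups, were chosen after the values were seen. Of 11 PRA1 proteins, which act in vesicle traffic, 5 rose and 0 fell. PRA1.G1 rose by 1.27 ± 0.19 (adjusted p = 0.00046), with means of 8.59 in DF1ox, 8.39 in WT and 7.33 in df1. Of 5 beta tubulins, 2 rose and 1 fell, with TUB5 at 9.39 in DF1ox, 9.16 in WT and 7.89 in df1 (1.50 ± 0.18, adjusted p = 0.00012) and TUB7 at 6.49, 7.49 and 7.45 (a fall of 0.96 ± 0.19, adjusted p = 0.00398). Of 20 beta glucosidases, 3 fell and 0 rose. BGLU16 had a mean of 10.41 in DF1ox, 10.59 in WT and 11.71 in df1, a fall of 1.30 ± 0.16 (adjusted p = 0.000135). Of 11 tau-class glutathione transferases, 2 fell and 0 rose, GSTU20 by 1.25 ± 0.27 (adjusted p = 0.00609) and GSTU22 by 1.40 ± 0.32 (adjusted p = 0.00961). Of 10 RALF peptides, 2 rose and 1 fell, and RALFL31 rose by 0.72 ± 0.15 (adjusted p = 0.00408) while RALFL27 fell. Of 47 glycosyltransferases (UGT), 2 rose and 3 fell, and of 26 cytochromes P450, 1 rose and 2 fell.

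**Figure D5:**
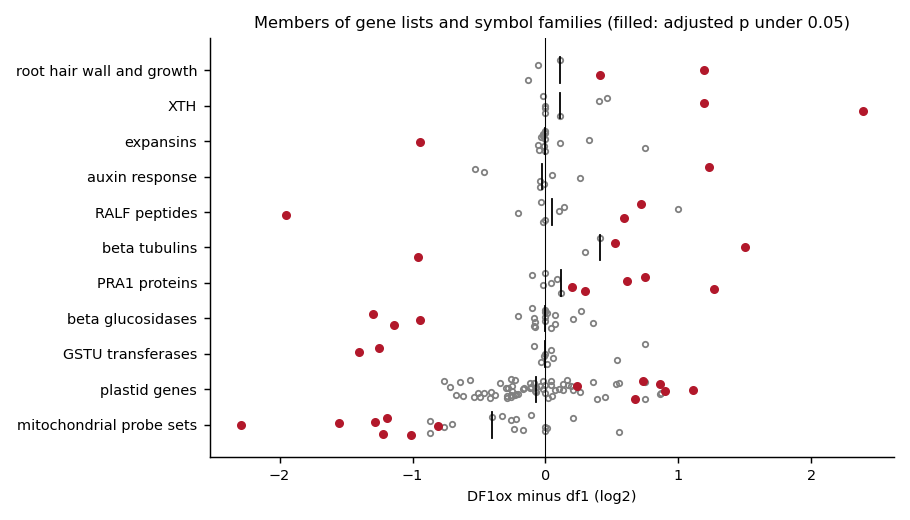
The difference DF1ox minus df1 in log2 units for each member of 11 lists and families, filled where the adjusted p was under 0.05, with the median of each as a line. Most members lie near 0, the called PRA1 members lie to the right, and the called mitochondrial probe sets lie to the left with a list median of -0.40.

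The called transcripts of the mitochondrion and of the plastid differed in direction. Of 23 mitochondrial probe sets, 7 were lower in DF1ox than in df1 and 0 higher, with a median of -0.40. Over all probe sets 7.99% were lower and 8.42% higher. The cytochrome oxidase gene cox2 had means of 7.75 in DF1ox, 7.41 in WT and 9.30 in df1, a difference of -1.55 ± 0.24 (adjusted p = 0.000705), and a mean of 8.78 in gtl1 and 7.88 in gtl1df1. ccb206 was at 3.78, 3.26 and 5.06 (-1.28 ± 0.19, adjusted p = 0.000485). Several of these probe sets are for 1 gene and are not independent. Their higher level in df1 went with the wider 3' to 5' difference of the df1 arrays, whose part was not tested. That difference was 0.65 to 0.86 in gtl1, where the mean of cox2 was also above WT, and 0.70 to 0.75 in gtl1df1. Of 69 plastid genes, 6 were higher in DF1ox and 0 lower, with a median of -0.07. The share of higher plastid genes was near that over all probe sets. The photosystem gene psbC had means of 3.40 in DF1ox, 2.48 in WT and 2.50 in df1, at least 0.90 higher in DF1ox (adjusted p = 0.00198), and the ribosomal protein gene rps18 had means of 4.01, 3.30 and 3.16 (at least 0.86, adjusted p = 0.00973).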

How the data were processed

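The authors normalized the ATH1 arrays with gcRMA, and the deposited values are log2 levels, which were used as deposited. Per the labels, 6 arrays were labelled in 2 cycles, and which samples these were is not given in the sources used here. Affymetrix control probe sets (64) were left out of the tests. Gene names came from the platform annotation and the TAIR10.1 gene table, by which 13513 probe sets had 1 gene, 503 several and 8730 none. The 18 arrays were fitted with a mean for each genotype by lmFit, contrasts.fit and eBayes of limma (version 3.58.1, under R 4.3.3), two-sided, with Benjamini-Hochberg adjustment over 22746 probe sets and a call at an adjusted p under 0.05. Errors are moderated standard errors.

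Genes were named by rule: DF1 and EXPA7, the 8 largest rises and falls among called 1-gene probe sets whose arrays did not overlap, 4 and 4 more per class, and up to 4 per list, of which the text describes a part. For a gene with several probe sets the brightest was used. Members and lists were chosen with earlier results of these data known. The fit was tested on simulated data. Python 3.11.15 with pandas 2.3.3 gave the tables and matplotlib 3.10.9 the plots. Promoter motifs were not searched, and 1 gene family is not reported here. Alternatives covered normalization, a filter on dim probe sets, the arrays fitted, moderation, the call rule, the set-cancelling contrast, a replicate block and leaving out each array.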

Additional observations from a re-analysis of the deposited data

Results flagged for a closer look

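At 4 of the named genes, loss of DF1 was called in opposite directions with GTL1 intact (df1 against WT) and in the gtl1 mutant (gtl1df1 against gtl1), and the difference between these effects passed limma's test. AT3G46700 rose by 1.87 in df1 (adjusted p = 0.0145) and fell by 1.89 in gtl1df1 (adjusted p = 0.0373), a difference of 3.76 ± 0.66 (SE, adjusted p = 0.00224). AT2G29510 rose by 1.22 and fell by 1.37, a difference of 2.59 ± 0.32 (adjusted p = 0.000415). For the transcription factor tny the effects were -0.52 and 0.62, a difference of -1.14 ± 0.21 (adjusted p = 0.00263). For EXLA1 they were -1.61 and 1.77, a difference of -3.38 ± 0.63 (adjusted p = 0.0032). Over all probe sets 15.6% passed this test of the difference. Only WT lay in the other hybridisation set, so a difference between the sets cannot be told apart from it.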

How the results depend on the processing

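DF1ox against df1 was called at 3734 probe sets. The count was 2164 with only the compared arrays, 2326 with only the DF1ox, df1 and WT arrays, 1045 at an unadjusted p under 0.05 and over 2-fold, 933 in the set-cancelling contrast and 2786 to 3488 without 1 array. The replicate numbers did not pair the samples, since deviations of same-number arrays of DF1ox and df1 correlated at 0.115, 0.00848 and 0.0517. With a replicate block 3555 were called, and all 58 named genes that were called kept their call. DF1ox against WT (1828) gave 78 and 690 in the first pair of settings and 1255 to 2388 without 1 array. df1 against WT (3995) gave 333, 2008 and 2636 to 4226, and gtl1 against gtl1df1 (1071) gave 358 with the compared arrays, 1615 among probe sets above the median level and 573 to 1048 without 1 array. The gain, loss and both-steps classes (722, 1813 and 181) held 373, 955 and 60 with the DF1ox, df1 and WT arrays, and 594 to 727, 1165 to 1806 and 97 to 169 without 1 array. The cause was not tested, beyond the fewer samples of the smaller fits. Most of the named genes that were called had been chosen for large changes without overlap of the arrays, so they do not stand for all 3734 calls. Of the 58, 53 kept their call in every setting but the set-cancelling contrast. In that contrast, which also takes in the effect of losing GTL1, 33 kept it, 24 lost it and AT1G13930 had the opposite sign (-0.59). RALFL24 (-0.89), NET2D (0.01), PRA1.H (-0.07) and TBL39 (-0.04), family members that were called, also changed sign there. Quantile normalization called 2 expansins in place of 1. Dim probe sets outside the brighter-probe filter have no value under it. The number of arrays limits the precision of every value.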
